A study of Mus musculus with 16 samples.

Results

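Acaa1a, Acaa1b, Ehhadh, Hsd17b4, Scp2, Decr2 and Acot8 encode enzymes of peroxisomal beta-oxidation, and their transcripts were followed in the livers of mice on 4 diets. They were taken by gene symbol from a table of SuperSAGE tag counts, as 7 of 20827 symbols, and each had 1 row there. SuperSAGE reads 1 short tag from every captured transcript, cut next to an NlaIII site near its 3′ end, so a gene gives 1 kind of tag whatever its length. The 16 mice were male C57BL/6J, 4 weeks old at the start, fed for 18 weeks, and each library came from the total liver RNA of 1 mouse, identified in the text by group and number. HFW mice ate a high-fat diet with 45% fat to which 1% WEPAK had been added, an extract of Pacific krill that dissolves in water. HF mice ate the same high-fat diet (D12451) without WEPAK. NW mice ate a normal diet with 10% fat (D12450B) and 1% WEPAK, and N mice ate that normal diet alone. Each group held 4 mice.

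Peroxisomes shorten very long, branched and some other fatty acids that mitochondria handle poorly, and they trim the side chain of bile acid precursors. An acyl-CoA oxidase starts each round, a bifunctional enzyme (L type, from Ehhadh, or D type, from Hsd17b4) hydrates and oxidizes the product, and a thiolase (Acaa1a, Acaa1b or the long form of Scp2) releases the shortened chain. Decr2 reduces double bonds that would block the spiral, and Acot8, an acyl-CoA thioesterase, frees the products from coenzyme A. In rodent liver many of these genes, Ehhadh and the thiolases among them, are known targets of the fatty acid receptor PPARalpha.

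The tags of the closely related thiolases are shown because every value of the pair rests on telling them apart. Capitals mark the bases that differ between the tags, in the strand of the transcript, read from GENCODE mouse transcripts on build GRCm38.
Acaa1a: catgGGACACCCTGgtTGCAAAGCca
Acaa1b: catgAATGGTGGATgtGATGGGCAca
The transcripts themselves matched at 1492 of 1639 aligned bases (91.0%), whereas the tags differed at 18 of 26 positions, and neither tag occurred in the transcript of the other gene. The Acaa1a tag lay at chr9:119350226-119350251 on the plus strand, in exon 12 of 12, and the Acaa1b tag at chr9:119148062-119148087 on the minus strand, also in exon 12 of 12. Both lay in the 3′ UTR.

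The tags of Ehhadh, Scp2, Decr2 and Acot8 are shown with the NlaIII site in capitals, because tags shared with other genes limit what a count can be credited to.
Ehhadh: CATGtcatatggatgtggatataaaa
Scp2: CATGgataccattaataaaaataact
Decr2: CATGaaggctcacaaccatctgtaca
Acot8: CATGggcggctgtggcgtcgggatgg
The Ehhadh tag, at chr16:21761560-21761585 (minus strand, exon 7 of 7, 3′ UTR), was found in 0 other genes, as were those of Acaa1a, Acaa1b, Hsd17b4 and Acot8. The Acot8 tag lay in coding sequence at chr2:164792965-164792990 (minus strand, exon 6 of 6). The Scp2 tag, at chr4:108044060-108044085 (minus strand, exon 16 of 16, 3′ UTR), was shared with the pseudogene Scp2-ps2. The Decr2 tag, at chr17:26081302-26081327 (minus strand, exon 9 of 9, 3′ UTR), was found in 5 other genes and was the last whole tag of 3 of them. Decr2 and Scp2 values are therefore uncertain. Matching of tags to genes in the deposited table is not given in the sources used here, and the tags printed are those its genes would give from the reference transcripts.

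**Figure D1:**
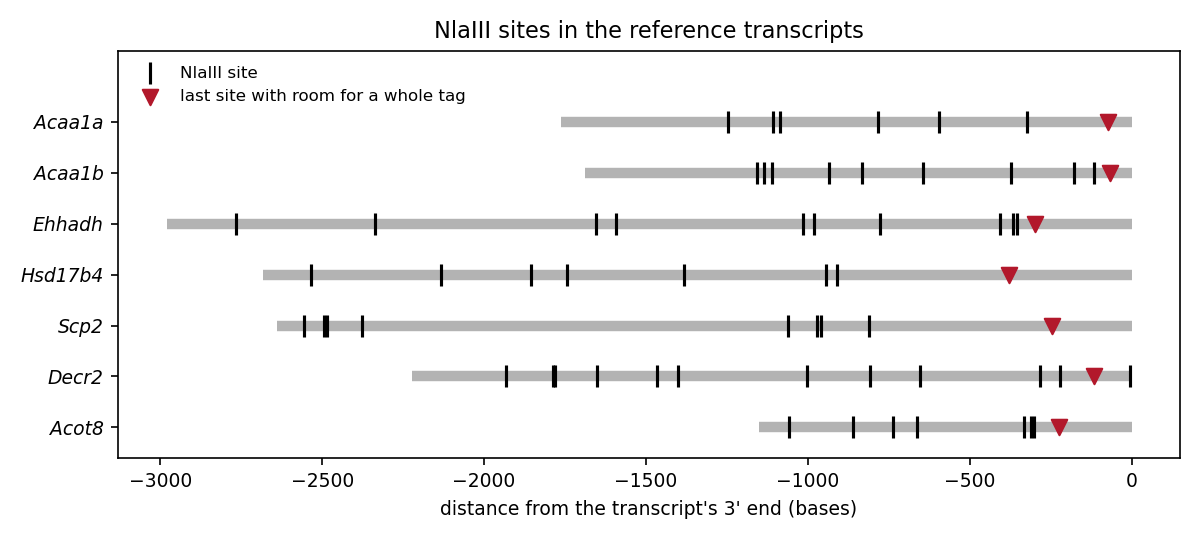
NlaIII sites in the reference transcript of each gene, by distance in bases from the 3′ end. Black ticks are sites and red triangles the last site with room for a whole tag, which lies from 65 bases (Acaa1b) to 377 bases (Hsd17b4) from the end.

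Library totals ran from 56684 to 149464 tags, with a mean in named genes of 75749 ± 21588 in HFW, 118882 ± 23746 in HF, 74198 ± 30660 in NW and 75963 ± 16768 in N (SD, n = 4 each). A single tag therefore stood for 6.26 to 18.7 CPM, the tag count scaled to a common normalized library size. On the component that held 44.5% of the variance of the 500 most variable genes, N mouse 4 scored -16.5, below all HF mice. N mouse 8 scored 4.90, the highest of the N mice. Several results that rest on N are therefore also given without these mice. Of the hepatocyte markers 5 of 6 had tags and Tf had 0. Fabp1 had 54 tags in all libraries together, so the sum of the hepatocyte markers rests mainly on the others. That sum ran from 39378 to 70385 CPM in HFW, 43525 to 53470 in HF, 66438 to 82166 in NW and 45780 to 72871 in N. The adipocyte markers Adipoq, Plin1, Lep and Fabp4 were at 0 in every library. Of 5 stellate cell markers all had tags, with sums of 716.4 to 3434 CPM in HFW, 410.6 to 3120 in HF, 324.2 to 880.1 in NW and 431.9 to 773.5 in N. Of the Kupffer cell markers 5 of 6 had tags (Adgre1 had 0), with sums of 69.9 to 216.1 CPM in HFW, 84.77 to 306.6 in HF, 102.4 to 187.2 in NW and 185.3 to 332.2 in N.

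Acaa1a, the constitutive peroxisomal thiolase, was the most abundant of the 7 genes and the one that passed the test. It rose with WEPAK on the high-fat diet and over both diets together. Acaa1a counted 3539, 3827, 5124 and 6811 CPM in HFW mice 34, 36, 38 and 40, against 1348, 1865, 2055 and 2687 CPM in HF mice 23, 25, 28 and 29. Every HFW mouse lay above every HF mouse. Among the 1046 genes tested, 6.79% were likewise higher in HFW with no overlap. The fold was 2.43 (log2 fold change 1.28, SE 0.31), which passed edgeR's quasi-likelihood test with Benjamini-Hochberg adjustment over all genes tested (adjusted p = 0.00891). In this comparison 9.85% of tested genes passed in either direction and 4.21% were called higher.

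On the normal diet the values overlapped. Acaa1a counted 8241, 5548, 6404 and 4033 CPM in NW mice 11, 12, 15 and 20, against 1577, 3366, 4169 and 5083 CPM in N mice 4, 5, 7 and 8. All 4 NW mice were above the N mean, and N mice 7 and 8 reached into the NW range. The difference of 0.77 on the log2 scale (SE 0.31) did not pass the edgeR quasi-likelihood test (adjusted p = 0.0953, unadjusted p = 0.0174). It was 1.07 without N mouse 8 (adjusted p = 0.0231) and 0.52 without N mouse 4 (adjusted p = 0.324). Without both N mice 4 and 8 it was 0.66 (edgeR quasi-likelihood adjusted p = 0.272, unadjusted p = 0.0516). Averaged over both diets, Acaa1a rose 2.03-fold with WEPAK (log2 1.02, SE 0.22, edgeR quasi-likelihood adjusted p = 0.00086), where 31.3% of tested genes passed and 15.2% were called higher. The test of whether the WEPAK difference itself depended on the diet gave 0.51 (SE 0.43) on the log2 scale and did not pass (edgeR quasi-likelihood adjusted p = 0.998). The summed hepatocyte markers also had higher means with WEPAK, at 60937 CPM in HFW and 49243 CPM in HF, and at 73584 CPM in NW and 56034 CPM in N, and their part in the Acaa1a difference was not tested. In bulk liver RNA, fewer cells of a type and less RNA per cell cannot be told apart.

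The high-fat diet alone went the other way for Acaa1a without passing the test. The mean was 1989 ± 553.4 CPM in HF and 3549 ± 1490 CPM in N (SD, n = 4 each), and all 4 HF mice were below the N mean. N mouse 4, at 1577 CPM, lay within the HF range. The log2 difference was -0.83 (SE 0.31, edgeR quasi-likelihood adjusted p = 0.384), and without N mouse 4 it was -1.07 and passed (adjusted p = 0.0312). Without N mouse 8 it was -0.57 (adjusted p = 0.958), and without N mice 4 and 8 it was -0.89 (adjusted p = 0.258). With WEPAK in both diets Acaa1a averaged 4825 ± 1493 CPM in HFW and 6056 ± 1756 CPM in NW, a log2 difference of -0.33 (SE 0.31, adjusted p = 0.665). The mean diet effect was -0.58 (SE 0.22, adjusted p = 0.138) and passed without N mouse 4 (-0.70, adjusted p = 0.0185). Its adjusted p ran up to 0.325 without other single mice and was 0.0881 without N mice 4 and 8.

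**Figure D2:**
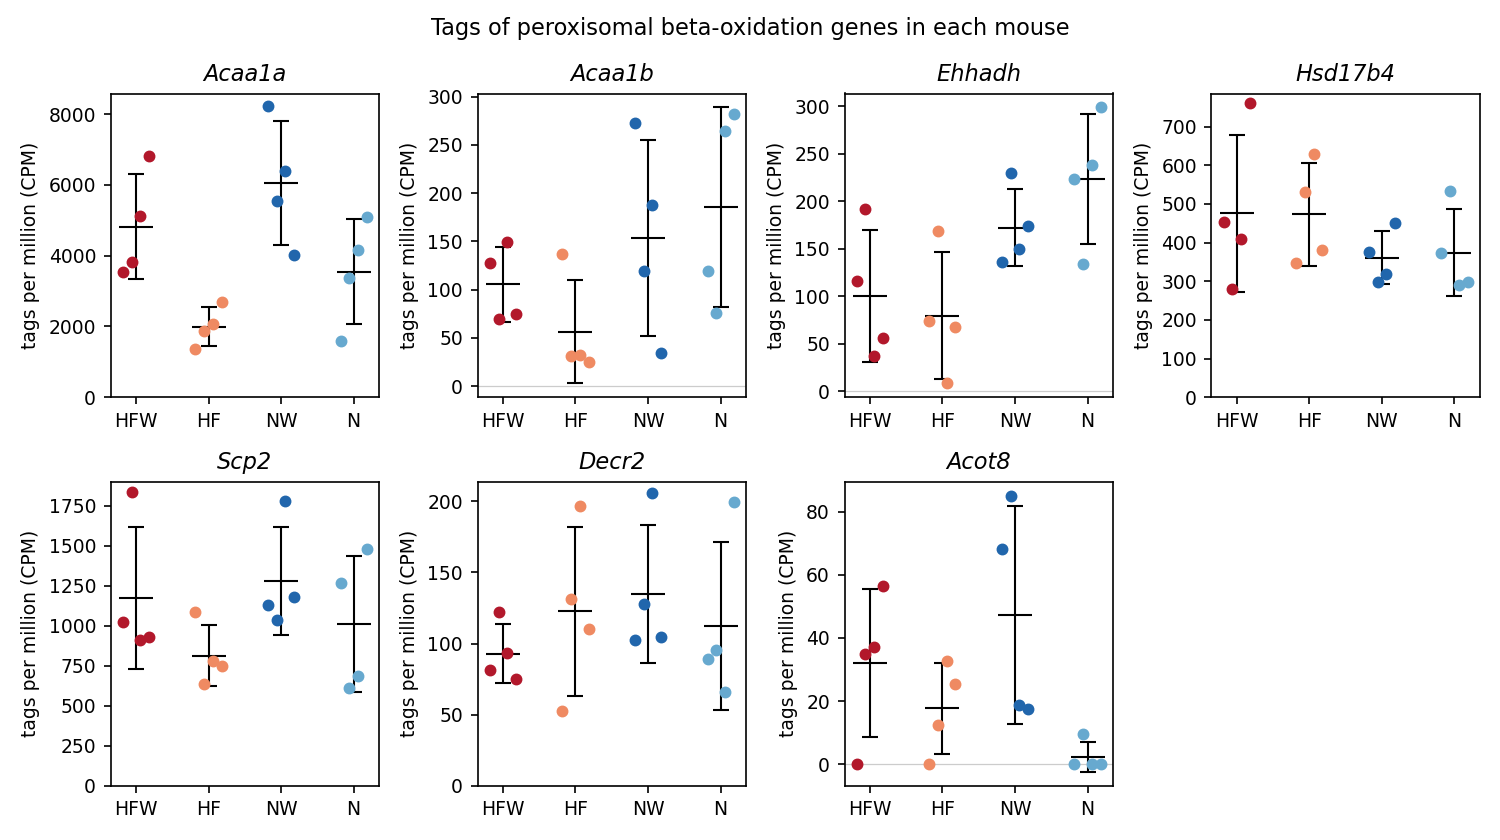
Scaled tag counts (CPM) of each of the 7 genes in every mouse, by diet group (HFW, HF, NW, N from left to right), on linear axes that include 0; points are mice, long black ticks the group means and black bars 1 SD on each side (n = 4). Acaa1a lay between 3539 and 6811 CPM in HFW and between 1348 and 2687 CPM in HF.

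Acaa1b, the thiolase form that peroxisome proliferators induce in rodents, was far scarcer, with 151 tags in all 16 libraries against 5308 for Acaa1a. Its tags numbered 11, 4, 8 and 8 in HFW, 13, 5, 4 and 3 in HF, 16, 14, 10 and 2 in NW and 8, 8, 20 and 17 in N. Acaa1b came to 136.9, 31.29, 32.76 and 25.43 CPM in HF mice 23, 25, 28 and 29, against 119, 76.28, 264.7 and 282.4 CPM in N mice 4, 5, 7 and 8. HF mouse 23 stood inside the N range, and the other 3 HF mice lay below every N mouse. The log2 difference was -1.75 (SE 0.54), with an unadjusted p of 0.00279 that did not survive adjustment over all genes in edgeR's quasi-likelihood test (adjusted p = 0.354). Leaving out each mouse moved the log2 difference between -2.51 (without HF mouse 23) and -1.44 (without N mouse 8), with adjusted p from 0.065 to 0.924. The mean diet effect was -1.14 (SE 0.38, edgeR quasi-likelihood adjusted p = 0.101) and passed without N mouse 4 (-1.21, adjusted p = 0.0436). Without other single mice its adjusted p ran up to 0.239, and it was 0.166 without N mice 4 and 8.

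WEPAK gave no passing difference in Acaa1b on either diet. Acaa1b averaged 105.4 ± 39.05 CPM in HFW and 56.58 ± 53.61 CPM in HF, and 153.5 ± 101.2 CPM in NW and 185.6 ± 103.3 CPM in N (SD, n = 4 each). The log2 differences were 0.96 (SE 0.58) in HFW minus HF and -0.26 (SE 0.50) in NW minus N, with edgeR quasi-likelihood adjusted p of 0.277 and 0.794. The mean WEPAK effect was 0.35 (SE 0.38, adjusted p = 0.524), and its dependence on diet was 1.22 (SE 0.76, adjusted p = 0.998).

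The share of Acaa1b among the tags of the thiolase pair does not depend on how the libraries were scaled. It was 2.30% ± 1.06 in HFW, 3.34% ± 3.93 in HF, 2.25% ± 1.04 in NW and 5.12% ± 2.06 in N (SD, n = 4 each). HF mouse 23 had the highest share, 9.22% of 141 tags (95% exact binomial interval 5 to 15.3%), while the other HF mice had 0.938 to 1.65%. The largest group difference, 2.25% in NW and 5.12% in N, gave an exact two-sided permutation p of 0.0857 (0.343 after adjustment over the 8 share tests), where the smallest p that 4 against 4 mice allow is 0.0286. Without single mice the difference ran from -3.83 percentage points (without N mouse 5, unadjusted exact permutation p = 0.0286) to -2.23 points (without N mouse 4), with unadjusted p up to 0.114. The test on shares was chosen after the values were seen. A comparison alone at a p of 0.0286 could not pass adjustment over the 8 share tests, so not passing says little about the shares.

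Ehhadh, the L-bifunctional enzyme and a classical PPARalpha target, had its lowest values on the high-fat diets. Ehhadh counted 73.69, 169, 8.189 and 67.81 CPM in HF mice 23, 25, 28 and 29, against 223.1, 133.5, 238.2 and 299 CPM in N mice 4, 5, 7 and 8. Only HF mouse 25 reached into the N range, and HF mouse 28 held 1 tag. The log2 difference was -1.38 (SE 0.47), with an unadjusted p of 0.00606 and an adjusted p of 0.354 in edgeR's quasi-likelihood test. It ran from -2.13 without HF mouse 25 to -0.95 without HF mouse 28, with adjusted p from 0.0861 to 0.958. Without N mice 4 and 8 it was -1.08 (edgeR quasi-likelihood unadjusted p = 0.0695, adjusted p = 0.539).

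With WEPAK in both diets, Ehhadh counted 116, 192.2, 37.26 and 56.37 CPM in HFW mice 34, 36, 38 and 40, against 136.5, 229.4, 149.8 and 173.8 CPM in NW mice 11, 12, 15 and 20. HFW mouse 36 lay within the NW range and the other 3 HFW mice below it. The log2 difference was -0.85 (SE 0.51, edgeR quasi-likelihood adjusted p = 0.489). Averaged over both, the diet effect on Ehhadh was -1.11 (SE 0.34, edgeR quasi-likelihood unadjusted p = 0.00296, adjusted p = 0.0775). Without HF mouse 25 it passed at -1.49 (adjusted p = 0.0471), while without other single mice the adjusted p ran up to 0.19. Without N mice 4 and 8 it was -0.96 (adjusted p = 0.182). The WEPAK differences of Ehhadh were 0.23 (SE 0.52) in HFW minus HF and -0.30 (SE 0.46) in NW minus N, with edgeR quasi-likelihood adjusted p of 0.824 and 0.719. Their mean was -0.03 (adjusted p = 0.948), and the test of dependence on diet gave 0.52 (SE 0.69, adjusted p = 0.998).

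Hsd17b4, the D-bifunctional enzyme that handles branched chains and bile acid precursors, gave no passing difference. Its means were 475.7 ± 203.9 CPM in HFW, 472.8 ± 132.2 CPM in HF, 360.7 ± 69.15 CPM in NW and 374 ± 112.7 CPM in N (SD, n = 4 each). All 4 groups overlapped, with single mice from 279.6 to 761 CPM in HFW and from 291.2 to 534 CPM in N. The log2 difference was 0.32 (SE 0.30) in HF minus N and 0.45 (SE 0.31) in HFW minus NW, and the mean diet effect was 0.39 (SE 0.22, edgeR quasi-likelihood adjusted p = 0.311). The mean WEPAK effect was -0.03, with a 95% interval from -0.45 to 0.40 on the log2 scale (adjusted p = 0.941). The Hsd17b4 tag lay in coding sequence, in exon 24 of 24 on chromosome 18.

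Ehhadh as a share of the tags of both bifunctional enzymes gave no passing difference between diets. As for the thiolase pair, a comparison alone at the smallest possible p could not pass adjustment over the 8 share tests. It was 14.5% ± 9.60 in HF and 38.1% ± 13.1 in N (SD, n = 4 each), with 1.28 to 24.1% in HF mice and 20 to 50% in N mice. HF mouse 25 and N mouse 5 overlapped. The difference of -23.6 percentage points had an exact two-sided permutation p of 0.0571 (0.343 adjusted over the 8 share tests), and without single mice it ran from -29.7 points (without N mouse 5, unadjusted exact permutation p = 0.0286) to -19.2 points (without HF mouse 28), with unadjusted p up to 0.0857. The share was 19.1% ± 15.7 in HFW and 32.5% ± 7.72 in NW, a difference of -13.4 points (exact permutation p = 0.2, adjusted p = 0.533), and without single mice it ran from -20.6 points (without HFW mouse 36, unadjusted exact permutation p = 0.0286) to -9.34 points (without HFW mouse 40), with unadjusted p up to 0.371. With 24 to 112 tags of both enzymes in a library, the exact 95% intervals were wide, for example 0.0325 to 6.94% for HF mouse 28.

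**Figure D3:**
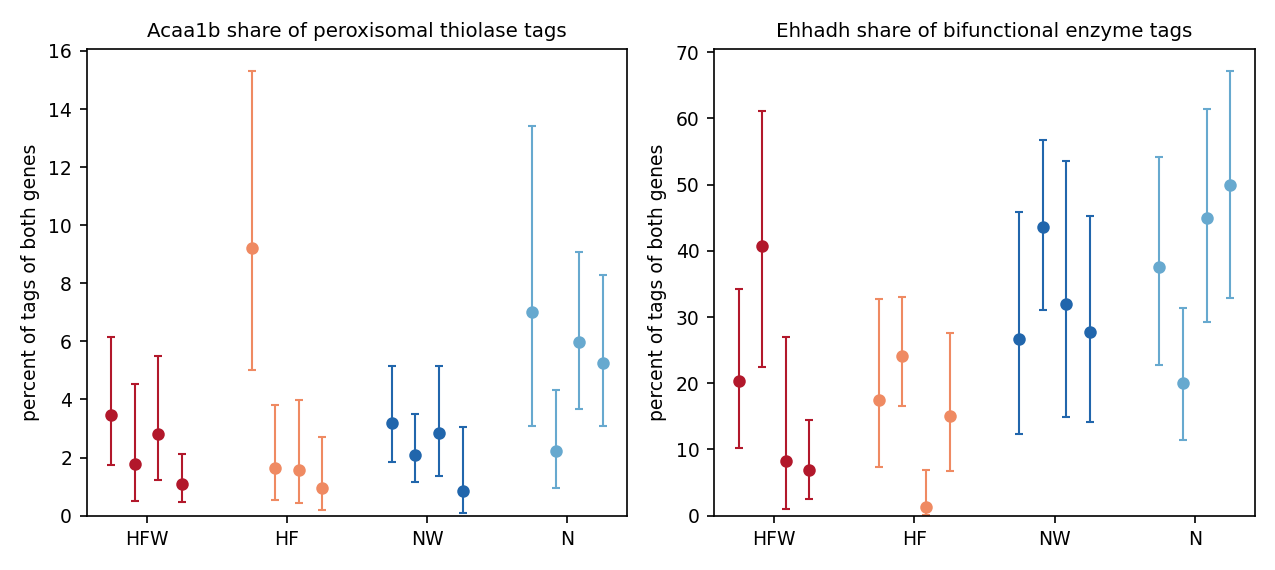
Share of Acaa1b among tags of Acaa1a and Acaa1b (left) and of Ehhadh among tags of Ehhadh and Hsd17b4 (right), in percent, by mouse and diet group (HFW, HF, NW, N). Points are mice and bars on them the 95% exact binomial intervals; the Ehhadh share was 1.28 to 24.1% in HF and 20 to 50% in N.

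Scp2 encodes both a peroxisomal thiolase for branched chains (its long form, SCPx) and sterol carrier protein, and the single tag does not separate the forms. Scp2 counted 1021, 1835, 912.9 and 930 CPM in HFW mice 34, 36, 38 and 40, and 1084, 638.3, 778 and 746 CPM in HF mice 23, 25, 28 and 29. It counted 1126, 1037, 1779 and 1182 CPM in NW mice 11, 12, 15 and 20, and 1264, 610.3, 688.2 and 1478 CPM in N mice 4, 5, 7 and 8. HFW and HF overlapped through HF mouse 23, and NW lay within the wide range of N but for mouse 15. The log2 difference was 0.53 (SE 0.30) in HFW minus HF and 0.35 (SE 0.30) in NW minus N, with edgeR quasi-likelihood adjusted p of 0.241 and 0.473. The mean WEPAK effect of 0.44 (SE 0.21) had an unadjusted p of 0.0451 and an adjusted p of 0.109. It passed without N mouse 8 (0.59, adjusted p = 0.0296) and without N mice 4 and 8 (0.72, adjusted p = 0.0139), and was 0.32 without HFW mouse 36 (adjusted p = 0.259). The diet differences of Scp2 were -0.31 in HF minus N and -0.13 in HFW minus NW (SE 0.30 each), and that in HF minus N was 0.34 without N mice 4 and 8.

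Decr2, the peroxisomal dienoyl-CoA reductase, gave no passing difference. It averaged 92.96 ± 20.95 CPM in HFW, 122.7 ± 59.42 CPM in HF, 135 ± 48.65 CPM in NW and 112.5 ± 59.22 CPM in N (SD, n = 4 each), and all the groups overlapped. Its log2 differences ran from -0.56 (SE 0.45, HFW minus NW) to 0.29 (SE 0.43, NW minus N), with edgeR quasi-likelihood adjusted p of 0.585 and 0.712.

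Acot8, the peroxisomal thioesterase, had too few tags for the fit across genes. It had 0, 2, 2 and 6 tags in HFW mice 34, 36, 38 and 40, 0, 2, 4 and 3 tags in HF mice 23, 25, 28 and 29, 4, 10, 1 and 1 tags in NW mice 11, 12, 15 and 20, and 0, 1, 0 and 0 tags in N mice 4, 5, 7 and 8. Every NW mouse had a tag and 1 of 4 N mice did. On the log2(CPM + 1) scale NW exceeded N by 4.41, with an exact two-sided permutation p of 0.0286, the smallest that 4 against 4 mice allow and without adjustment for the 4 comparisons made. The other differences on that scale were 2.54 in HF minus N (exact permutation p = 0.143), 0.68 in HFW minus HF (p = 0.486) and -1.19 in HFW minus NW (p = 0.629). At 1 tag in the whole N group, the size of the Acot8 difference and its p rest on few counts. NW mice 15 and 20 and N mouse 5 each held 1 tag, at 18.73, 17.38 and 9.536 CPM. The order of these mice, and with it the smallest possible p, came from library scaling. With no filter on low counts, edgeR's quasi-likelihood test gave a log2 difference of 3.51 in NW minus N (adjusted p = 0.0903).

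Set against the rest of the table, the 6 genes tested stood as follows. In HF minus N, 0 of 6 passed edgeR's quasi-likelihood test, as did 0 with DESeq2 and 0 with limma-voom, while 0.0956% of all tested genes passed. At an unadjusted p under 0.05, 3 of 6 (Acaa1a, Acaa1b and Ehhadh, each negative) were below the threshold, against 9.85% of all tested genes. Without N mice 4 and 8 Ehhadh was not below it (edgeR quasi-likelihood unadjusted p = 0.0695). The median log2 difference of the 6 was -0.57, and that of all tested genes was -0.02. In HFW minus NW, 0 of 6 passed in edgeR, DESeq2 or limma-voom and 0 had an unadjusted p under 0.05, where 0% of all genes passed and 12% had an unadjusted p under 0.05. The median of the 6 was -0.43 there, against 0.05 over all tested genes. For the mean diet effect, 0 of 6 passed in edgeR, DESeq2 or limma-voom and 3 had an unadjusted p under 0.05, against 0.574% and 20.6% of all tested genes.

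In HFW minus HF, 1 of 6 passed (Acaa1a, higher), where 9.85% of all tested genes passed. It was also the 1 with an unadjusted p under 0.05, which 28.6% of all tested genes had. Of the 6, 5 were positive, with a median of 0.38 against 0.05 over all tested genes. In NW minus N, 0 of 6 passed in edgeR, DESeq2 or limma-voom and 1 (Acaa1a) had an unadjusted p under 0.05, while 11% of all tested genes passed and 28.5% had an unadjusted p under 0.05. Without N mice 4 and 8 the unadjusted edgeR quasi-likelihood p of Acaa1a was 0.0516. For the mean WEPAK effect 1 of 6 passed (Acaa1a), where 31.3% of all tested genes passed, and 2 (with Scp2) had an unadjusted p under 0.05, against 42.5% of all tested genes. Of the 6, 3 were positive, with a median of 0.16 against 0.03 over all tested genes. DESeq2 and limma-voom called Acaa1a, and no other of the 6, in HFW minus HF and in the mean WEPAK effect. For the dependence of the WEPAK difference on diet, 0 of 6 passed in edgeR, DESeq2 or limma-voom and 0 had an unadjusted p under 0.05, where 0% of all tested genes passed and 2.49% had an unadjusted p under 0.05. HF minus N and NW minus N share the N mice, and HF minus N and HFW minus HF share the HF mice, so their values are not independent of each other.

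**Figure D4:**
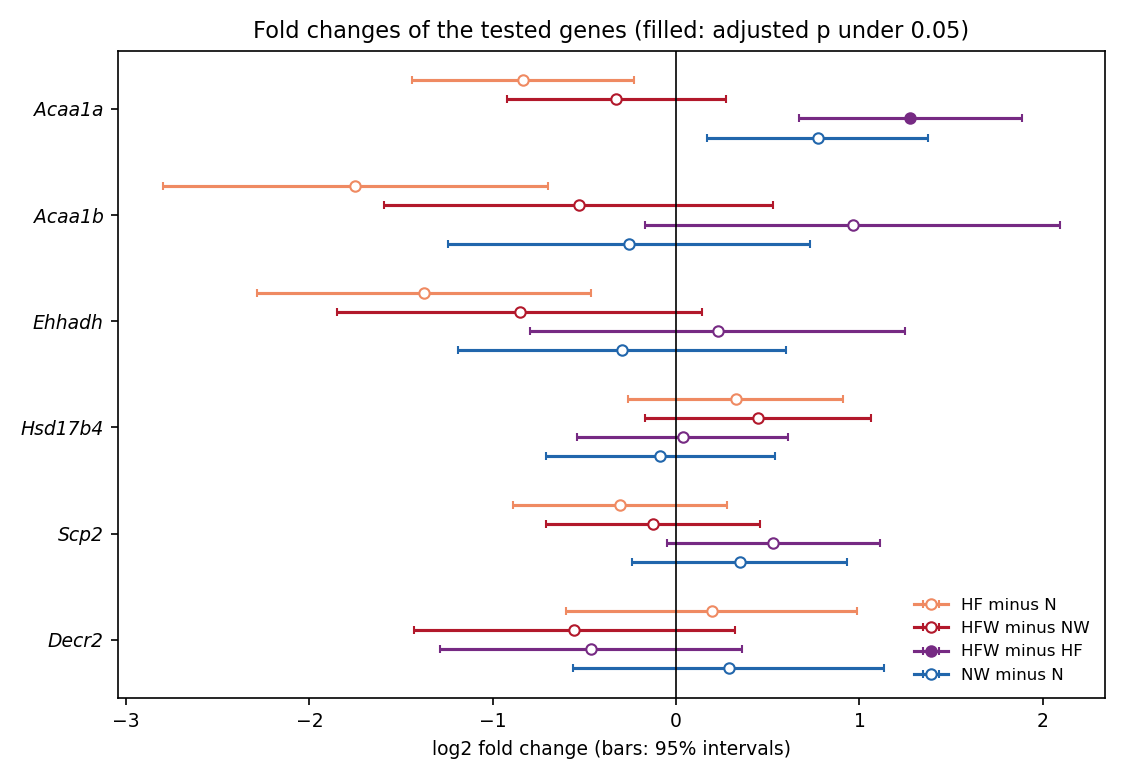
Log2 fold changes of the 6 tested genes in HF minus N, HFW minus NW, HFW minus HF and NW minus N, with bars that span the 95% intervals; filled points passed at an adjusted p under 0.05. The filled point is Acaa1a in HFW minus HF, at 1.28.

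Of 27 listed genes for other enzymes of peroxisomal fatty acid metabolism 10 were tested, and for the mean WEPAK effect 2 of them rose and 0 fell, where 31.3% of all tested genes passed and 15.2% were called higher, with a median of 0.16 against 0.03 over all tested genes. Acox2, the oxidase that opens the shortening of bile acid precursors, rose by 1.38 on the log2 scale (SE 0.24, edgeR quasi-likelihood adjusted p = 7.76e-05), and Lonp2, a peroxisomal protease, by 0.90 (SE 0.19, adjusted p = 0.000686). In HF minus N, 0 of 10 passed in edgeR, DESeq2 or limma-voom and 1 had an unadjusted p under 0.05, while 9 of 10 were negative, with a median of -0.41. Of all tested genes in that comparison, 0.0956% passed in edgeR and 9.85% had an unadjusted p under 0.05. Their median was -0.02, with 48.5% positive. Cat, the peroxisomal catalase, differed by -0.81 there (SE 0.37, edgeR quasi-likelihood adjusted p = 0.486).

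Genes of peroxisome assembly were mostly too scarce to test. Of 20 listed 3 were tested, and 0 passed in any of the 7 comparisons in edgeR, DESeq2 or limma-voom. Over all tested genes, the share that passed in edgeR ran from 0% to 31.3% between these comparisons. In HFW minus HF 1 of the 3 had an unadjusted p under 0.05, which 28.6% of all tested genes had. Of the 25 listed genes for PPARalpha and its targets 9 were tested. For the mean WEPAK effect 1 of the 9 rose and 1 fell, where 31.3% of all tested genes passed. Creb3l3, a liver transcription factor for fasting metabolism, rose by 0.69 on the log2 scale (SE 0.20, edgeR quasi-likelihood adjusted p = 0.0102), though not without a filter on low counts (0.56, adjusted p = 0.0859). For the mean WEPAK effect DESeq2 called 3 of the 9, and 313 of the 1046 genes tested. Ppara itself was below the filter, at 39.3 CPM in HFW, 21.3 in HF, 53.7 in NW and 14.3 in N on average, from 10, 10, 15 and 6 tags in those groups.

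Mitochondrial beta-oxidation, the parallel route, had 9 of 19 listed genes tested. For the mean WEPAK effect 3 rose and 2 fell, where 31.3% of all tested genes passed and 15.2% were called higher. Acaa2, the mitochondrial counterpart of the peroxisomal thiolases, rose by 1.36 on the log2 scale (SE 0.23, edgeR quasi-likelihood adjusted p = 6.2e-05). Acaa2 averaged 385.7 ± 122.4 CPM in HFW and 135.5 ± 41.62 CPM in HF, and 636.8 ± 69.83 CPM in NW and 273.7 ± 123.4 CPM in N (SD, n = 4 each). Its log2 differences were 1.49 in HFW minus HF (adjusted p = 0.00417) and 1.23 in NW minus N (adjusted p = 0.0125, and 0.0611 without N mouse 4). Etfa, an electron acceptor of the mitochondrial dehydrogenases, rose by 1.03 (SE 0.20, adjusted p = 0.000347), and Acads, the short-chain dehydrogenase, by 1.12 (SE 0.24, adjusted p = 0.000712). Acadvl, the very-long-chain dehydrogenase, fell by 0.88 (SE 0.18, adjusted p = 0.000686). In HF minus N, Acaa2 differed by -0.99 (edgeR quasi-likelihood adjusted p = 0.354) and passed without N mouse 4 (-1.17, adjusted p = 0.0494), while without N mouse 8 it was -0.67 (adjusted p = 0.958). In bile acid synthesis, 3 of 11 listed genes were tested and 1 rose, the same Acox2, in HFW minus HF, in NW minus N and in the mean WEPAK effect. Of all tested genes, 9.85%, 11% and 31.3% passed in those comparisons, in either direction.

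**Figure D5:**
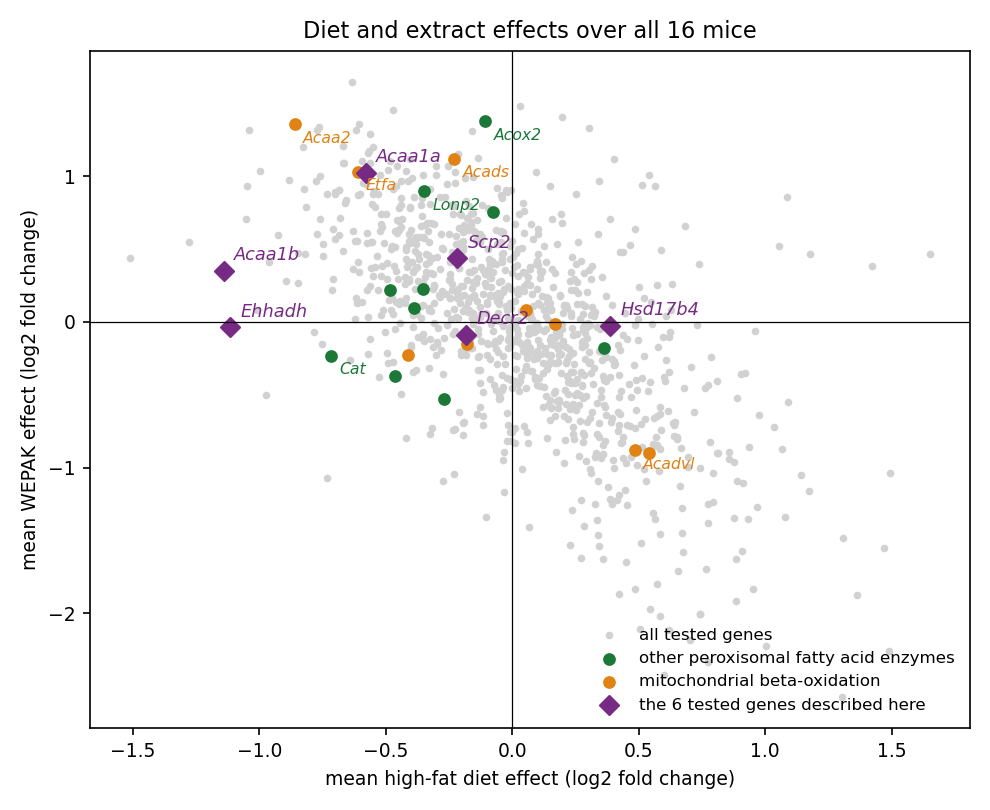
Mean WEPAK effect (vertical axis) against mean high-fat diet effect (horizontal axis), both log2 fold changes, for all tested genes (grey), other peroxisomal enzymes (green), mitochondrial beta-oxidation (orange) and the 6 genes tested here (purple diamonds). Acaa1a lies at -0.58 and 1.02, and Ehhadh at -1.11 and -0.03.

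Over the 16 mice the genes most like Acaa1a in their log2 CPM were Trfr2, Gc and Etfa, with root mean square differences of 0.309, 0.324 and 0.337 after each gene was centred on its own mean, against a median of 0.862 over all tested genes. Acaa1b lay at 0.848 from Acaa1a and Ehhadh at 1.04, close to and above that median. A gene that did not vary would lie at 0.749 from Acaa1a, 0.867 from Acaa1b and 0.871 from Ehhadh. Acaa1b and Ehhadh thus lay farther from Acaa1a than such a gene would, and the measure also favours genes that vary little. The genes most like Acaa1b were Pdpr (0.574), Mat1a (0.642) and Cyp3a59 (0.659), with a median of 0.994, and those most like Ehhadh were Mup21 (0.547), Ubxn4 (0.559) and Ppp4c (0.578), with a median of 1.01. The mice share group and library scaling, and Acaa1b and Ehhadh also carry counting error at their few tags.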

How the data were processed

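The authors deposited unnormalized tag counts, with an entry for each RefSeq transcript and a column for each mouse, per the file headers. Per the labels' protocols, cDNA primed with biotinylated oligo-dT was digested with NlaIII and bound to beads, EcoP15I released the tags, and the tags received indexed adapters and were amplified by PCR. The matching of tags to transcripts is not given in the sources used here. No molecular identifiers or batches are named, so intervals of shares cover counting error only. Replicates are separate mice, and p-values measure the spread between them.

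Of 26782 entries, 416 without a symbol (0.0729% of tags) were left out, 40 of 41 symbols turned into dates were restored from their accession, and counts were summed per symbol. Library pairs within a group differed beyond sampling noise (chi-square over its degrees of freedom, 2.24 to 9.64), so none was a duplicate. In R 4.3.3, edgeR 4.0.16 fitted all 16 libraries with a mean per group (TMM scaling, the default filter by group with a minimum count of 10, robust quasi-likelihood F test, Benjamini-Hochberg adjustment over 1046 genes at 0.05). Approximate standard errors were had from the log2 difference and its F value, and 95% intervals assume a normal error. Mean effects average the 2 contrasts of diet or of WEPAK. The scripts were tested on simulated counts with known changes. Acot8, below the filter, was tested by exact permutation of log2(CPM + 1). Alternatives were DESeq2 1.42.0 size factors and Wald test, limma-voom 3.58.1, no filter, a minimum count of 20, the compared groups alone, transcript entries tested separately, Acaa1a and Acaa1b summed, thinning to 56655 tags, and leaving out each mouse. Leaving out N mice 4 and 8, and the tests on shares, were added after the data were seen.

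The 7 genes and the 5 gene lists (96 genes) were chosen with earlier results of these data known. By rule, the 7 genes are named in every group, the lists by their counts and up to 4 passing genes with the smallest p, Ppara, Cat and Acaa2 always, and the 3 genes most like Acaa1a, Acaa1b and Ehhadh in log2 CPM (prior count 2). Results for some items named by this rule were left out. Tag positions came from GENCODE M21.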

Additional observations from a re-analysis of the deposited data

Results flagged for a closer look

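In 28 sets of 4 mice (7 genes in 4 groups), 3 had a mouse apart from the other 3 by Dixon's criterion, which chance meets in about 1 of 20 sets. Acaa1b stood at 136.9 CPM in HF mouse 23, with the other HF mice between 25.43 and 32.76 CPM. Scp2 stood at 1835 CPM in HFW mouse 36, with the other HFW mice between 912.9 and 1021 CPM. Acot8 stood at 9.536 CPM in N mouse 5, which is 1 tag, with 0 tags in the other N mice. Where all mice of a set but 1 are at 0, the criterion is met at any value. The chance rate does not apply to such a set.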

How the results depend on the processing

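No paired analysis was possible because the labels number the mice without repeating a number across diets. Acaa1a passed in HFW minus HF and in the mean WEPAK effect under every alternative run, with log2 differences of 1.03 to 1.45 and of 0.89 to 1.17 when single mice were left out. Counts of 6 genes called, when single mice were left out, ran from 0 to 1 in HF minus N and in NW minus N, from 0 to 2 in the mean diet effect (Acaa1a and Acaa1b without N mouse 4) and from 1 to 2 in the mean WEPAK effect, where Scp2 joined without N mouse 8, and 2 passed without N mice 4 and 8. Over all genes, HF minus N called 1, and 0 with a minimum count of 20, limma-voom or the compared groups alone, 2 with DESeq2 and 0 to 31 (without N mouse 4) without single mice. HFW minus NW called 0, and 3 with the compared groups alone, 1 after thinning and 0 to 3 without single mice. HFW minus HF called 103, and 156 without N mice 4 and 8 and 40 (without HF mouse 25) to 150 (without HF mouse 28) without single mice. NW minus N called 115, and 70 with no filter, 38 without N mice 4 and 8 and 31 (without N mouse 4) to 178 (without N mouse 8) without single mice. The mean diet effect called 6, and 30 with no filter, 3 with a minimum count of 20, 17 with DESeq2, 55 without N mice 4 and 8 and 0 (without N mouse 7) to 107 (without N mouse 4) without single mice. With no filter the median of all tested genes shifted by 0.2 in HF minus N, -0.23 in HFW minus HF, 0.101 in the mean diet effect and -0.126 in the mean WEPAK effect.

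Directions that changed belonged to differences that had not passed. Ehhadh in the mean WEPAK effect was 0.12 with limma-voom and 0.058 without N mice 4 and 8. Hsd17b4 in HFW minus HF was -0.0053 with DESeq2 size factors, -0.0067 with its Wald test, -0.17 with no filter and -0.012 without N mice 4 and 8. Without N mice 4 and 8, Scp2 was 0.34 in HF minus N and 0.12 in the mean diet effect, and Decr2 was 0.042 in the mean diet effect and 0.074 in the mean WEPAK effect. Without single mice the ranges were -0.66 to 0.11 for Acaa1b in NW minus N, -0.22 to 0.99 and -0.23 to 0.35 for Ehhadh in HFW minus HF and the mean WEPAK effect, -0.34 to 0.20, -0.14 to 0.17 and -0.18 to 0.10 for Hsd17b4 in HFW minus HF, NW minus N and the mean WEPAK effect, -0.45 to 0.069 for Scp2 in HFW minus NW, and -0.061 to 0.61, -0.32 to 0.010 and -0.20 to 0.13 for Decr2 in HF minus N, the mean diet effect and the mean WEPAK effect. The Acot8 differences ran from 1.98 to 3.67 in HF minus N, -1.79 to 0.16 in HFW minus NW, -0.45 to 2.03 in HFW minus HF and 4.02 to 5.26 in NW minus N (exact permutation p up to 0.0571). The Acaa1b share ran from -0.417 to 0.45 points in HFW minus NW and -1.85 to 0.913 in HFW minus HF, and the Ehhadh share from -2.62 to 8.66 in HFW minus HF. The causes were not tested. After thinning, and with a minimum count of 20, Acaa1b, Ehhadh and Decr2 had too few tags to be tested, so depth limits what can be said of them.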
